A study of Rattus norvegicus with 12 samples.

Results

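Somatostatin and its receptors were followed in the rat hippocampus by 9 probe sets of an oligonucleotide array. These were all the probe sets whose single gene symbol in the array annotation was Sst, Sstr1, Sstr2, Sstr3, Sstr4 or Sstr5. They stood for 6 genes among 15923 probe sets in all, and 7 of the 9 were bright enough to be tested. Measured values of these same arrays entered the choice of the family: Sstr4 was selected on its opposite KA differences in the 2 housings. Its signals are therefore given as a description without a test, except for the mean difference between housings, which that pattern does not use.

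RNA from 12 pools of rat hippocampi, each from 3 to 4 animals, was hybridised to 1 array per pool, in 4 groups of 3 pools; the label of 1 pool counts samples, not animals. All animals were treated at postnatal day 20, either with PBS, phosphate-buffered saline, or with KA, an abbreviation the labels leave unexplained. Because the series concerns seizures, it is read here as kainic acid, which activates glutamate receptors and provokes seizures in rodents. Isolated rats lived alone in individual cages for 10 days. Enriched rats lived in an enriched environment in groups of 8 per large cage, for a time that their labels do not state. The sample descriptions used here do not state the order of treatment and housing. The series asks whether enrichment lessens the neuronal injury caused by seizures. Strain and sex are not given in the sources used here, nor is it known which animals shared a litter or a cage. A group kept in ordinary company without enrichment was not analysed here, so enrichment, company and the lack of isolation cannot be told apart. Below, n counts pools, and p-values measure the spread between pools.

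Somatostatin is a peptide released mainly by inhibitory interneurons. In the hippocampus it is best known from the interneurons of the stratum oriens and the dentate hilus, which contact the outer dendrites of principal cells and are among the cells most easily lost after prolonged seizures. Its 5 receptors couple to inhibitory G proteins of the Gi and Go class. They lower cyclic AMP, open inwardly rectifying potassium channels and close voltage-gated calcium channels, and so dampen excitation. Sstr1 and Sstr4 belong to one subgroup of the family by sequence and drug binding, and Sstr2, Sstr3 and Sstr5 to the other.

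Before the members' values, the state of the arrays is given once. Of 10 hippocampal neuron markers 8 were measured, and all 8 lay above the filter on low signal, while none of the 8 measured markers of neocortex and hypothalamus did (Oxt and Trh had a mean signal under 17.05). Of 7 measured markers of thalamus and striatum, however, 4 lay above the filter. The array of KA-treated enriched pool 3 stood apart. Its score on the first principal component was 19.04, against -7.071 to 0.8365 on the others. Its mean correlation with the other arrays was 0.9772, against 0.9817 to 0.9864, and its log2 ratio of the 3′ to the 5′ beta-actin probe sets was 0.856, against 0.361 to 0.639. It was also the highest of the 12 arrays for 4 of the 7 tested probe sets of the family, namely Sst, both of Sstr2, and Sstr3, so the differences of these 4 probe sets that involve this group are given with and without it where they are described; the pathway genes further on are given with all pools. Summed choroid plexus markers were 3796 in PBS-treated isolated pool 1 and 844.4 to 1562 in the other 11 pools.

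The promoters of 3 members are shown because the values below turn on these genes and because the cyclic AMP response element of the somatostatin gene, a classical binding sequence of the factor CREB, links this family to nerve cell activity. The sequences are RefSeq's for assembly GRCr8, from 250 bases before to 50 bases after the start that the table gives, 5′ to 3′ on the strand of the gene, with capitals for TGACGTCA. The Sst window is chr11:90461296-90461595 (+), that of Sstr2 chr10:99163103-99163402 (+) and that of Sstr4 chr3:156307742-156308041 (+). Each spans the start of a protein-coding gene, Sst at chr11:90461546-90462823, Sstr2 at chr10:99163353-99170519 and Sstr4 at chr3:156307992-156309855.
Sst: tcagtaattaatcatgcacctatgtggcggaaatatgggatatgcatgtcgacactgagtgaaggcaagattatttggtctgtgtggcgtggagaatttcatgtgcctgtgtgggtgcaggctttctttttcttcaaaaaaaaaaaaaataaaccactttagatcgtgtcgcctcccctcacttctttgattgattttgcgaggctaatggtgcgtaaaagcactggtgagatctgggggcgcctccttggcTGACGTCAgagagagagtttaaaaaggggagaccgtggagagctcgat
Sstr2: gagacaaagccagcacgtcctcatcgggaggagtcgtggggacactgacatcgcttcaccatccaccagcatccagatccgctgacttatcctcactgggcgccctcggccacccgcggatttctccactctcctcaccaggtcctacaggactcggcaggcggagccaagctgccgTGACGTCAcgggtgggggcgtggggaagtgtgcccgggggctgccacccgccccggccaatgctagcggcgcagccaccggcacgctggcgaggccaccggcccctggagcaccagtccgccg
Sstr4: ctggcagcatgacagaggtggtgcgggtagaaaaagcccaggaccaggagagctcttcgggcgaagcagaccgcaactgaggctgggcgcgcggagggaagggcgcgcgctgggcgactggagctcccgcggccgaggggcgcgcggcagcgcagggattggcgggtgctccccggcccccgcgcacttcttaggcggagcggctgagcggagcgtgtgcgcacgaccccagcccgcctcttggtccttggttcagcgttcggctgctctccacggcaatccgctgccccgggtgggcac

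TGACGTCA was searched on both strands, which are the same for this palindrome, and TGACG, the first bases of it, on both strands as well, so that each full match also holds the short one. Positions count the base at the start that the table gives as 1, with no position 0. The full motif began at position 3 in the Sst window and at position -73 in that of Sstr2. That start is an annotation and was not checked against measured transcript starts, so position 3 does not place the motif inside the transcript. The Sstr4 window, which had a GC content of 71.7% against 45.7% for Sst, held neither. All 6 members had a window in the table. The full motif was found in 2 of them and in 1.83% of all 33469 promoter windows of the same length. The short motif was found in 3 of the 6, the third being Sstr1 at position -15, and in 21.2% of all windows. A match describes letters in a window and is not evidence of a bound site.

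Sst, the ligand, was lower in the enriched pools than in the isolated pools, apart from 1 pool, but the difference did not pass the test. The signals were 584, 598.4 and 532.7 in isolated pools given PBS and 553.6, 550.4 and 534.7 in isolated pools given KA. In enriched pools they were 495.5, 414.8 and 471.7 after PBS and 480.5, 489.5 and 619.4 after KA. Every enriched pool given PBS was thus below every isolated pool of either treatment, and so were KA-treated enriched pools 1 and 2, while pool 3 was the highest of all 12. The means were 571.7 ± 34.54 (SD, n = 3) after PBS and 546.2 ± 10.13 (SD, n = 3) after KA in isolation, and 460.7 ± 41.49 (SD, n = 3) and 529.8 ± 77.71 (SD, n = 3) in enrichment.

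On the log2(signal + 17.05) scale used for all differences, which understates changes of dim probe sets, Sst in PBS-treated rats was lower in enrichment than in isolation by -0.303 (SE 0.10, 95% interval -0.52 to -0.0867). That is 0.81 of the isolated level, seen in 3 of 3 pools with no overlap. The unadjusted p was 0.00975, but limma's p adjusted by the Benjamini-Hochberg method over 9520 probe sets was 0.998, so the difference did not pass. After KA the housing difference was -0.05 (SE 0.10, adjusted p 0.935, 95% interval -0.269 to 0.165). Averaged over both treatments it was -0.178 (SE 0.071, unadjusted p 0.0264, adjusted p 0.832). The 4 groups therefore ranked from PBS-treated isolated through KA-treated isolated and KA-treated enriched down to PBS-treated enriched, and no step of that order passed the test.

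KA-treated enriched pool 3 bears directly on Sst. Without it, the 5 other enriched pools ran from 414.8 to 495.5 and the 6 isolated pools from 532.7 to 598.4, with no overlap. The mean housing difference was then -0.235 (SE 0.0584, adjusted p 0.489), still short of the threshold. The same full separation of all enriched from all isolated pools was reached by 0.662% of tested probe sets without that pool and by 0.305% with it; Sst was the 1 member of 7 to reach it without the pool, and 0 of 7 did with it. KA against PBS differed by -0.06 (SE 0.10, adjusted p 0.999) in isolated pools and by 0.189 (SE 0.10, adjusted p 0.933) in enriched pools, the latter 0.0753 without pool 3. This KA difference in enriched pools shares its PBS-treated pools with the housing difference after PBS. After KA, the housing difference without pool 3 was -0.166. In pooled tissue, fewer cells of a type and less RNA per cell cannot be told apart.

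**Figure D1:**
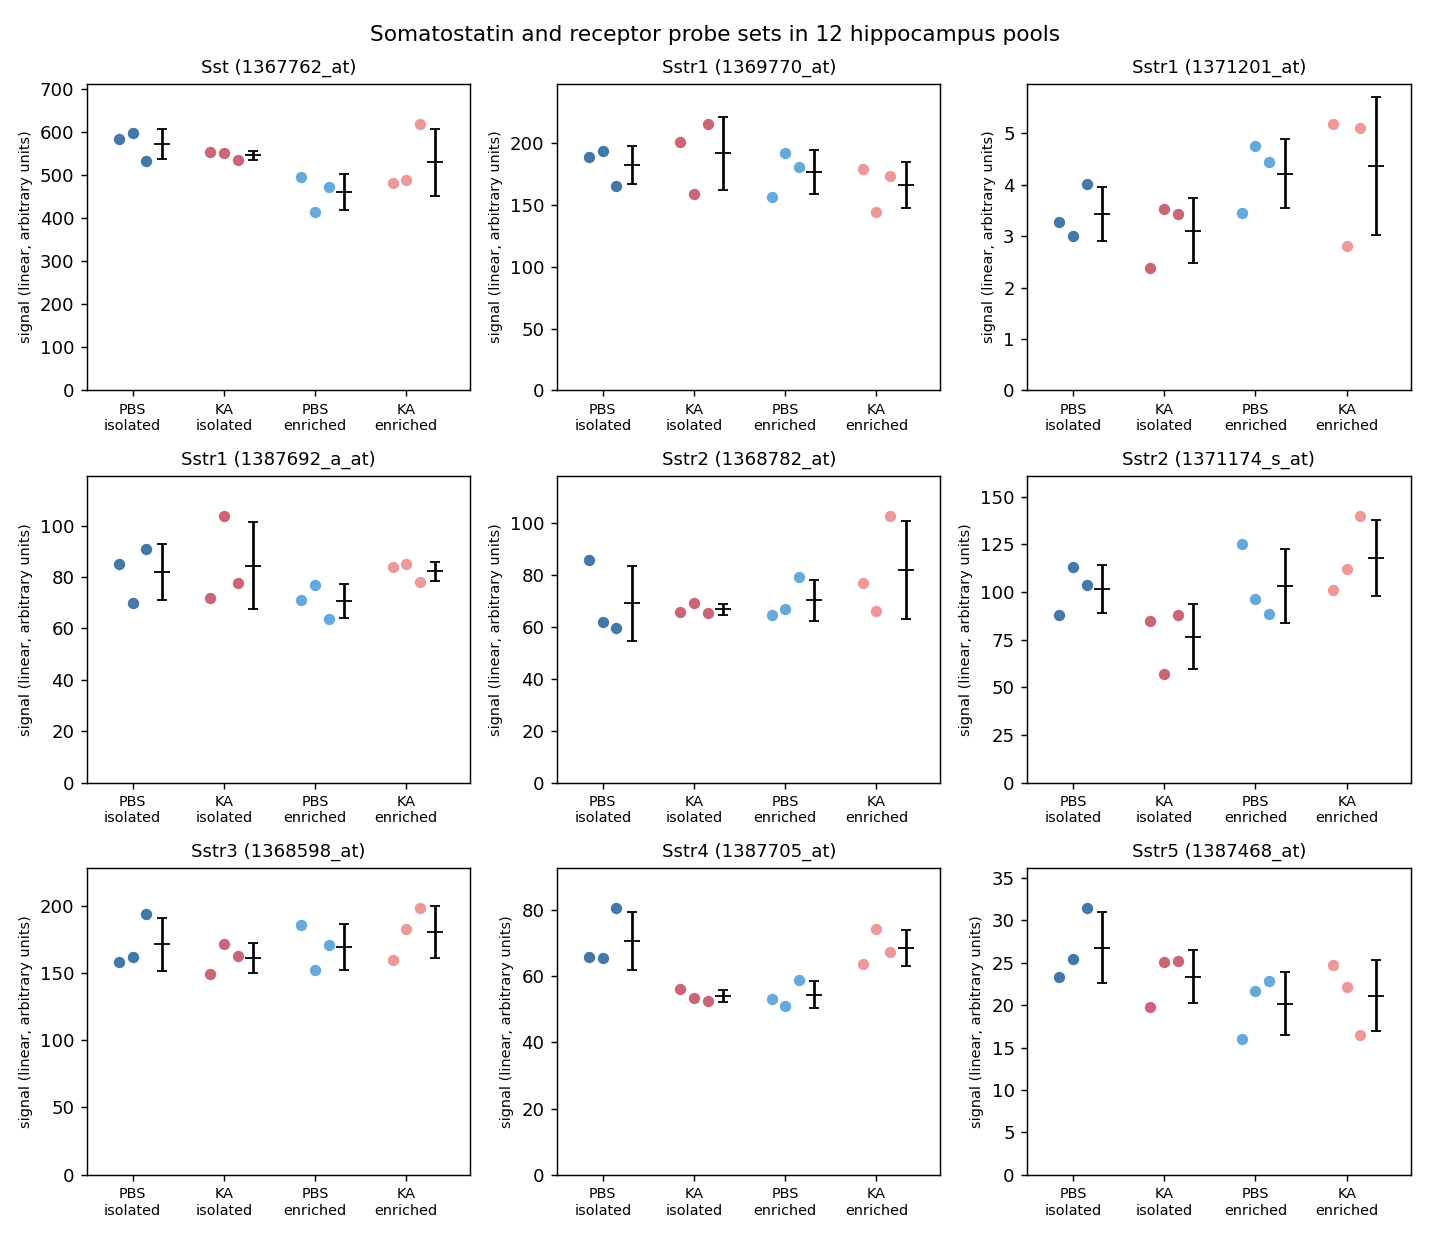
Signal (linear, arbitrary units) of the 9 probe sets in each of 12 pools, with points for pools in replicate order from left to right, and a black bar for the mean ± SD of each group of 3. Sst is lower in the PBS-treated enriched pools (414.8 to 495.5) than in all isolated pools (532.7 to 598.4), and Sstr4 is high in PBS-treated isolated and KA-treated enriched pools (63.71 to 80.61) and low in the other 2 groups (51 to 58.93).

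Sstr4, a receptor abundant in the hippocampus, is described without a test. Its signals were 65.65, 65.46 and 80.61 in isolated pools given PBS and 56.21, 53.32 and 52.54 in isolated pools given KA. In enriched pools the signals were 53.22, 51 and 58.93 after PBS and 63.71, 74.26 and 67.39 after KA. So the 3 KA-treated pools lay below all 3 PBS-treated pools in isolation and above all 3 in enrichment. The group means were 70.57 ± 8.696 and 54.02 ± 1.934 in isolation and 54.38 ± 4.093 and 68.45 ± 5.356 in enrichment (PBS then KA, SD, n = 3). PBS-treated isolated pools and KA-treated enriched pools overlapped with each other, as did the remaining groups.

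In log2 terms the KA difference of Sstr4 was -0.298 in isolated pools and 0.259 in enriched pools, and one minus the other was 0.557. Of the 9520 probe sets, 47 (0.494%) were separated in full and in opposite directions by KA in the 2 housings, in either orientation, and Sstr4 is one of them by selection. KA-treated enriched pool 3, at 67.39, lay between the other pools of its group. Averaged over treatments, enriched and isolated pools differed by -0.0133 (SE 0.0602, 95% interval up to 0.117, limma adjusted p 0.989), the 1 Sstr4 difference that the selection did not use, and it did not pass.

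In the isolated pools some sums of cell type markers also differed between KA and PBS without overlap, and their part in the receptor values was not tested. Of all single tested probe sets, 10.8% separated these groups. The summed signal of 13 microglia markers was 1011 to 1076 after PBS and 1523 to 1883 after KA, with all 11 tested markers higher in KA, a median log2 difference of 0.524 and none passing. The summed signal of 7 astrocyte markers was 9291 to 10100 after PBS and 10260 to 10870 after KA, with 5 higher, 2 lower and none passing. That of 8 hippocampal neuron markers was 5411 to 5638 after PBS and 5084 to 5401 after KA, with 5 higher, 3 lower and none passing. The median log2 difference of these neuron markers was 0.0128. The bright genes Camk2a (mean 1120 after PBS and 854 after KA) and Wfs1 (930 and 742) were among the 3 lower. In enriched pools the same sums overlapped between treatments, at 1032 to 1649 and 961.8 to 1580 for microglia and at 5327 to 5776 and 4720 to 5770 for hippocampal neurons, as did the astrocyte sums, at 9229 to 10070 and 9396 to 10740. Other sums did not overlap there. That of 4 endothelium markers was 476.3 to 519.7 after PBS and 445.5 to 464.3 after KA. Markers of somatostatin interneurons summed to 3104 to 3160 and 2953 to 3047, with 4 of 9 tested higher and 5 lower. Those of thalamus and striatum gave 487.3 to 517.1 and 459.6 to 480.8. Choroid plexus markers were higher after KA, at 844.4 to 987.2 and 1000 to 1562. Of all single tested probe sets, 9.62% separated these enriched groups. The part of these sums was not tested either.

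Sstr2, the receptor best known for the electrical actions of somatostatin, was read by a pair of probe sets. For 1371174_s_at the signals were 88.05, 113.1 and 103.5 in isolated pools given PBS and 84.58, 56.91 and 88.07 in isolated pools given KA. Enriched pools gave 125, 96.12 and 88.26 after PBS and 101.3, 111.9 and 140 after KA. All 3 KA-treated enriched pools were above all 3 KA-treated isolated pools, 117.7 ± 20 against 76.52 ± 17.07 (SD, n = 3), whereas the PBS-treated groups overlapped, 103.1 ± 19.32 against 101.6 ± 12.66 (SD, n = 3).

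That housing difference after KA was 0.533 (SE 0.154, 95% interval 0.201 to 0.866), 1.45-fold, with an unadjusted p of 0.00417 and a limma adjusted p of 0.622, and so did not pass. It was 0.418 without KA-treated enriched pool 3, 0.372 without KA-treated isolated pool 2, and 0.305 with the beta-actin ratio, which was outlying in the former pool, as a covariate. After PBS it was 0.01 (SE 0.154, adjusted p 0.998). Isolated pools differed by -0.354 between KA and PBS (SE 0.154, unadjusted p 0.0387, adjusted p 0.999), and this value was -0.193 without KA-treated isolated pool 2, which at 56.91 was the lowest of all pools. In enriched pools the KA difference was 0.167 (SE 0.154, adjusted p 0.958), and the difference between the KA effects was 0.521 (SE 0.218, unadjusted p 0.0325, adjusted p 0.951). Without KA-treated enriched pool 3 these values were 0.0517 and 0.406. The KA difference in isolation and the housing difference after KA share the KA-treated isolated pools.

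The second Sstr2 probe set, 1368782_at, had the same order of group means as the first and differences of the same sign in all 4 pairwise comparisons, with none passing. With array medians made equal, the housing difference of the first after PBS turned to -0.00343. The signals of 1368782_at were 85.74, 61.94 and 59.55, then 65.58, 69.12 and 65.27 in isolated pools after PBS and KA. They were 64.54, 66.91 and 79.16, then 76.7, 65.88 and 102.7 in enriched pools. The groups overlapped in every comparison. Its housing difference after KA was 0.223 (SE 0.136, adjusted p 0.771), or 0.0753 without KA-treated enriched pool 3, and its KA difference in isolation -0.03 (SE 0.136, adjusted p 0.999). In enrichment its KA difference was 0.166 (SE 0.136, adjusted p 0.944), beside 0.167 for the first, and 0.0189 without pool 3. Over the 12 pools the correlation between both Sstr2 probe sets was 0.21, and -0.12 with the group means removed, which is given as a description since the pools share arrays and groups. An s in the name of a probe set marks possible matching to more than 1 transcript, so the pair may not read the same RNA, which was not tested.

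Sstr1, a receptor found on axons and nerve endings in parts of the brain, had 3 probe sets. For 1369770_at the signal ran from 144.8 in KA-treated enriched pool 2 to 216 in KA-treated isolated pool 3, and the group means were 182.7 ± 15.36, 192.1 ± 29.61, 176.6 ± 17.98 and 166 ± 18.55 (SD, n = 3; PBS then KA in isolation, then in enrichment). All groups overlapped, and its largest difference was that of housing after KA, -0.187 (SE 0.117, adjusted p 0.776). For 1387692_a_at the enriched pools gave 71.04, 76.84 and 63.82 after PBS and 83.76, 85.07 and 78.07 after KA, without overlap. That difference was 0.183 (SE 0.116, unadjusted p 0.137, adjusted p 0.933), and in isolation it was 0.03 (SE 0.116, adjusted p 0.999), where KA-treated pool 2 was the highest at 103.8.

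These 2 probe sets of Sstr1 ran against each other over the 12 pools, with a correlation of -0.415, and of -0.627 with the group means removed. The third, 1371201_at, had signals of 2.373 to 5.189 in all pools, below the filter. Its groups were compared by an exact two-sided permutation test. With pools exchanged within each treatment (400 arrangements, smallest possible exact p 0.005), enriched and isolated pools differed by 0.0701 (exact permutation p = 0.08). KA and PBS pools, exchanged within each housing, differed by -0.0071 (exact permutation p = 0.845). No order of the groups can be read at this level.

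Sstr3, a receptor placed on the primary cilium of neurons, was the steadiest member in range, with its highest pool 1.33 times its lowest. Signals were 158.4, 161.7 and 193.9, then 149.3, 171.6 and 162.2 in isolated pools after PBS and KA. Enriched pools had 185.5, 151.8 and 170.9, then 159.6, 182.7 and 198.2. Every group overlapped every other, and the differences lay between -0.0781 (KA in isolation, SE 0.103, adjusted p 0.999) and 0.144 (housing after KA, SE 0.103, adjusted p 0.805). The 95% interval for housing after KA ran from -0.0772 to 0.366, and without KA-treated enriched pool 3 that difference was 0.0788.

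Sstr5, better known from the pituitary and the pancreas, lay below the filter. Isolated pools had 23.37, 25.48 and 31.45 after PBS and 19.77, 25.06 and 25.25 after KA, and enriched pools 15.98, 21.72 and 22.87 after PBS and 24.7, 22.18 and 16.51 after KA. All 3 PBS-treated enriched pools were below all 3 PBS-treated isolated pools. The exact two-sided permutation test gave p = 0.1 for this difference of -0.235, the smallest that 3 pools against 3 allow. With housing exchanged within each treatment the mean difference was -0.16 (exact permutation p = 0.085), and the mean KA difference was -0.0402 (exact permutation p = 0.62).

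Over the tested probe sets as a group, limma called no member in any of 7 contrasts. Sstr4 is left out of these counts except for the mean over housings, which leaves 6 and 7 probe sets. For KA in isolated pools 0 of 6 passed the adjusted threshold of 0.05, against 0.0105% of all tested probe sets; 1 of 6 had an unadjusted p under 0.05, against 4.31%, and 0 of 6 separated the groups without overlap, against 10.8%. For KA in enriched pools the counts were 0 of 6 (0% of all), 0 of 6 (4.98%) and 1 of 6 (9.62%). The 1 that separated there was 1387692_a_at of Sstr1.

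For housing after PBS the same 3 counts were 0 of 6 (0.0105%), 1 of 6 (4.21%) and 1 of 6 (11.6%), the last 2 being Sst. For housing after KA they were 0 of 6 (0%), 1 of 6 (7.02%) and 1 of 6 (10.8%), both being 1371174_s_at of Sstr2. The mean over treatments gave 0 of 7 (0.021%) and 2 of 7 (5.64%), Sst lower and 1371174_s_at of Sstr2 higher in enrichment. Without KA-treated enriched pool 3 the latter was 0.215 with an unadjusted p from limma of 0.0697. The mean KA difference gave 0 of 6 (0.0105%) and 0 of 6 (4.31%), and the difference between KA effects 0 of 6 (0%) and 1 of 6 (4.97%). The counts of 0 to 2 rest on 6 or 7 probe sets, 4 of which read Sstr1 and Sstr2.

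Directions in the family were mixed in isolation, with 2 higher and 4 lower after KA and a median of -0.0454, against -0.00534 over all tested probe sets. In enrichment 5 were higher and 1 lower after KA, with a median of 0.167 against -0.00331. The members share arrays, and without KA-treated enriched pool 3 that median was 0.0353 against 0.000439 over all. Housing gave 2 higher and 4 lower after PBS (median -0.03 against 0.00265) and 3 higher and 3 lower after KA (median 0.0629 against 0.00299). Without that pool the housing counts after KA were 4 higher and 2 lower (median 0.0439 against 0.00823).

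**Figure D2:**
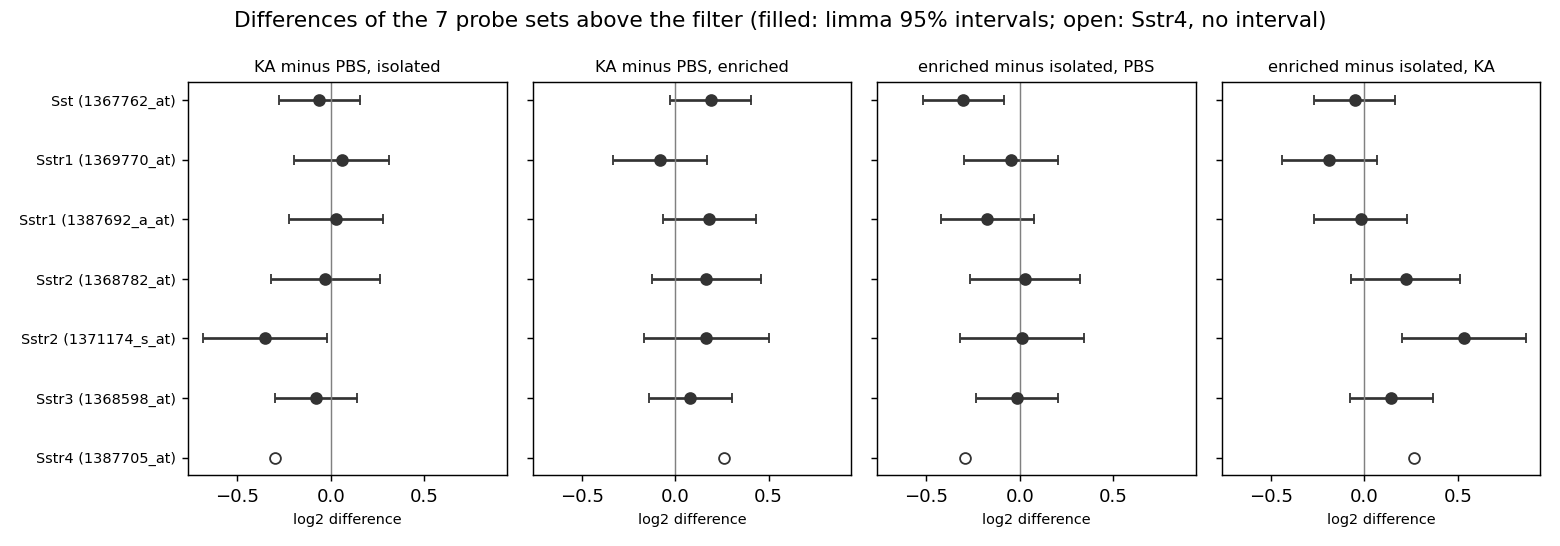
Log2 differences of the 7 probe sets above the filter in 4 comparisons, with filled points and bars for limma's estimates and 95% intervals, and open points without an interval for Sstr4, which was selected on these differences. The intervals leave out 0 for Sst in housing after PBS (-0.52 to -0.0867), and for 1371174_s_at of Sstr2 in housing after KA (0.201 to 0.866) and KA in isolation (-0.686 to -0.0213), before adjustment over 9520 probe sets.

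**Figure D3:**
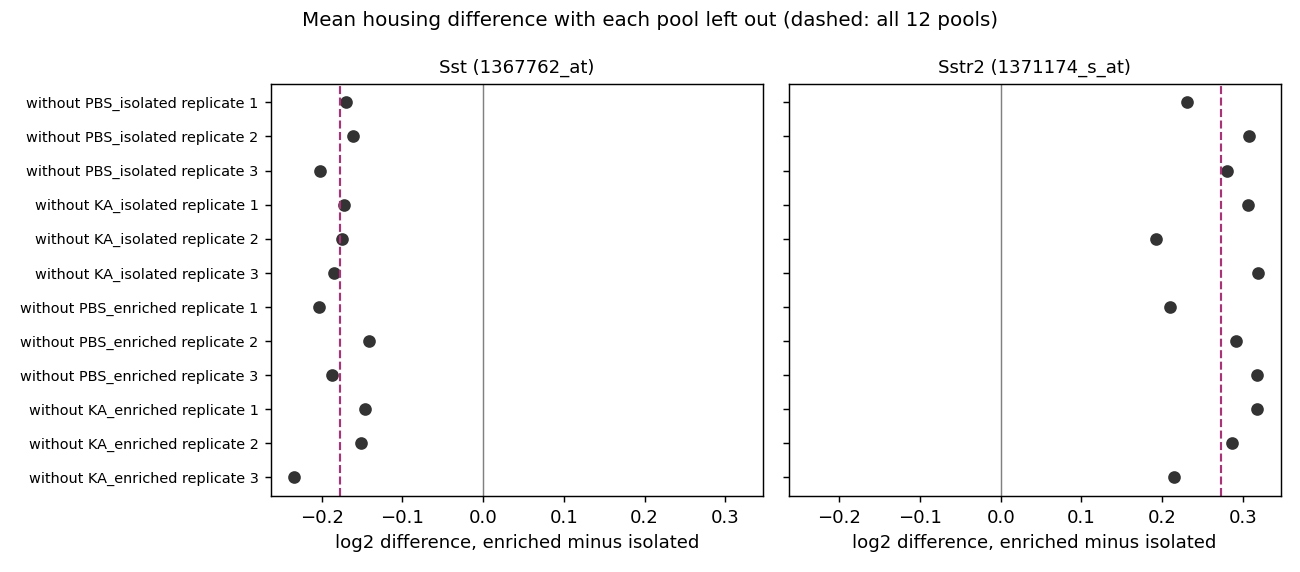
Mean housing difference (log2, enriched minus isolated) of Sst and of 1371174_s_at of Sstr2 with each of the 12 pools left out in turn; points are the estimates and the dashed line is the value with all pools. Sst runs from -0.235 without KA-treated enriched pool 3 to -0.142 without PBS-treated enriched pool 2, and Sstr2 from 0.192 to 0.319, so that the sign stays the same with any 1 pool removed.

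Other genes of the pathway were read from lists, 1 probe set per gene. Of the markers of somatostatin interneurons, 11 of 16 were measured and 9 tested, and none passed in any contrast. In enriched against isolated pools, averaged over treatments, 6 of the 9 were higher and 3 lower, with a median of 0.0544. Neuropeptide Y (Npy), which many of these cells also make, was 423 ± 16.6 and 414 ± 32.7 in isolated pools and 476 ± 28.9 and 459 ± 44.1 in enriched pools (PBS then KA, SD, n = 3). Its mean housing difference of 0.153 (SE 0.0614, adjusted p 0.832) had the opposite sign to that of Sst. The one with the smallest p was Sox6, a transcription factor needed for the maturation of these interneurons, at -0.153 (SE 0.0613, adjusted p 0.832).

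The summed signal of the 11 markers was 2970 to 3108 and 2911 to 3040 in isolated pools and 3104 to 3160 and 2953 to 3047 in enriched pools (PBS then KA). In enriched pools this sum was thus lower after KA with no overlap. Gad1 and Gad2, which make the transmitter GABA, differed by -0.0421 (SE 0.0489, adjusted p 0.918) and 0.185 (SE 0.106, adjusted p 0.879) in mean housing. Gad1 was also the list's gene of smallest p for KA in isolation, at -0.109 (SE 0.0692, adjusted p 0.999), and Reln, a secreted protein of some interneurons, for KA in enrichment, at -0.15 (SE 0.0912, adjusted p 0.933). After PBS the sum thus overlapped between housings, with 6 of the 9 tested markers higher and 3 lower in enrichment. The sum of 7 markers of other interneurons was 2950 to 3059 and 2719 to 3065 in isolated pools and 2725 to 2792 and 2738 to 2756 in enriched pools (PBS then KA). After PBS it was thus lower in enrichment with no overlap, a separation shown by 11.6% of all single tested probe sets. Its brightest genes were Cck (mean 1350 in isolated and 1210 in enriched pools after PBS) and Cnr1 (1050 and 951). Of the 6 tested markers in this list, 3 were higher and 3 lower in enrichment after PBS, with a median of -0.00902. The part of either sum in the Sst value was not tested.

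Markers of other interneurons were measured for 7 of 9 genes and tested for 6, of which none passed and 3 were higher and 3 lower in enrichment. Pvalb, the calcium-binding protein of fast-spiking cells, was 205 ± 24.5, 203 ± 11.8, 210 ± 19.7 and 199 ± 4.49 in the same order (SD, n = 3), and its mean housing difference was 0.00669 (SE 0.0655, adjusted p 0.994). Cck, the peptide of another interneuron class that is also made in principal cells, had the smallest p, at -0.191 (SE 0.0553, adjusted p 0.733). Htr3a, a serotonin-gated channel of interneurons, was that gene for KA in isolation, -0.125 (SE 0.0985, adjusted p 0.999), and Cnr1, the cannabinoid receptor of Cck cells, for KA in enrichment, 0.102 (SE 0.0864, adjusted p 0.952). Markers of thalamus and striatum differed in the same comparison as Sst. Their sum after PBS was 426.5 to 468.1 in isolated and 487.3 to 517.1 in enriched pools. Of all single tested probe sets, 11.6% separated these groups. For these markers 4 of 4 tested were higher in enrichment and none passed, and their part in the Sst value was not tested.

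**Figure D4:**
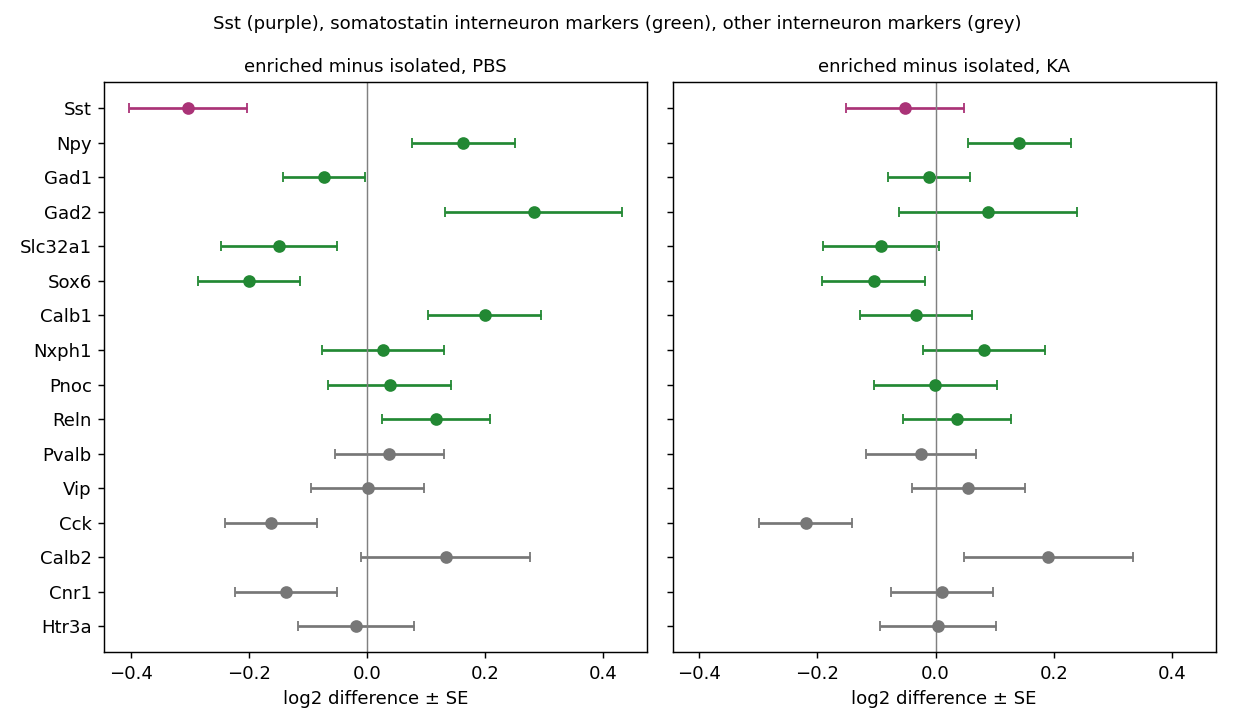
Log2 difference between enriched and isolated pools (point, with a bar of ± SE from limma) for Sst, 9 markers of somatostatin interneurons and 6 of other interneurons, after PBS (left) and after KA (right). In PBS-treated pools Sst, at -0.303, lies on the other side of 0 from Npy (0.163) and Gad2 (0.282), and on the same side as Sox6 (-0.20), Slc32a1 (-0.149) and Gad1 (-0.0733); none of the genes passed.

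Enzymes that cut and shape the peptide, and related ligands, were tested for 4 of 7 listed genes and none passed. The prohormone convertase Pcsk2 differed by 0.193 (SE 0.0909, adjusted p 0.876) in mean housing and by 0.106 (SE 0.129, adjusted p 0.999) for KA in isolation. Furin, another convertase, differed by 0.255 (SE 0.101, adjusted p 0.933) for KA in enrichment. Cort, the gene of the related peptide cortistatin, had no probe set with that single symbol and has no value here.

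The G proteins and adenylyl cyclases below the receptors were tested for 8 of 12 genes, with none passing. Gnao1, the Go alpha subunit that carries much of the receptors' signal in neurons, was 628 ± 48.3 and 603 ± 24.7 in isolated and 699 ± 23 and 744 ± 78.2 in enriched pools (PBS then KA, SD, n = 3), a mean housing difference of 0.221 (SE 0.062, adjusted p 0.684). The cyclase Adcy6 differed by -0.238 (SE 0.11, adjusted p 0.999) for KA in isolation and Adcy5 by 0.262 (SE 0.158, adjusted p 0.933) for KA in enrichment. Of the channels under somatostatin control 4 of 9 were tested and none passed. The potassium channel Kcnj6 had the smallest p for KA in both housings (-0.10 in isolation and -0.114 in enrichment) and the calcium channel Cacna1b for housing (0.0904).

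Among arrestins, receptor kinases, phosphatases and scaffolds, 8 of 12 were tested and none passed. Shank1, a postsynaptic scaffold that can bind the tail of Sstr2, had the smallest p in each of the 3 comparisons for which a gene is named. It measured 62.3 ± 2.21 and 49.7 ± 5.57 in isolated pools and 38.3 ± 6.3 and 50.5 ± 16.8 in enriched pools (PBS then KA, SD, n = 3). Its differences were -0.265 (SE 0.0993, adjusted p 0.832) for mean housing, -0.254 (SE 0.14, adjusted p 0.999) for KA in isolation and 0.266 (SE 0.14, adjusted p 0.933) for KA in enrichment. Like those of Sst, its group means were lowest in PBS-treated enriched and highest in PBS-treated isolated pools, and these 2 groups did not overlap (33.1 to 45.3 against 60.7 to 64.8). Of all tested probe sets, 11.6% separated these 2 groups.

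The CREB family, whose factors bind the element shown in capitals above, was tested for 4 of 5 genes and none passed. Creb1 was 104 ± 13.7 and 104 ± 11.3 in isolated and 133 ± 9.59 and 128 ± 29.2 in enriched pools (PBS then KA, SD, n = 3), with a mean housing difference of 0.284 (SE 0.0935, adjusted p 0.832). In KA contrasts the smallest p belonged to Atf1 in isolation (0.0775) and to Creb1 in enrichment (-0.0693). Other inhibitory peptide receptors were tested for 2 of 10 genes, Npy5r and Oprl1, with none passing: Npy5r, a receptor of neuropeptide Y, differed by 0.0678 in mean housing and 0.128 for KA in enrichment, and Oprl1, the nociceptin receptor, by -0.14 for KA in isolation.

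The genes whose log2 signal ran most like that of Sst over the 12 pools, among 6918 genes that were not members, were Rufy1 (r = 0.902), Syt17 (0.894) and Atp5mk (0.874). With the group means removed these were 0.911, 0.758 and 0.80. The most opposite were Magi1 (-0.862), Gad2 (-0.849) and Eif2s2 (-0.799), or -0.797, -0.804 and -0.908 within groups. For Sstr4 the most alike were Rhot2 (0.861), Tpd52l1 (0.855) and Ociad1 (0.852), and the most opposite Mmgt2 (-0.862), Ctsa (-0.828) and Ncoa6 (-0.818), with 0.666, 0.515 and 0.718, and -0.678, -0.657 and -0.523, within groups. All are the extremes of 6918 values over 12 shared arrays, KA-treated enriched pool 3 among them, and are descriptions. Within the family, Sst correlated with the tested receptor probe sets at 0.0838 to 0.32. With the group means removed these values ran from -0.382 (1387692_a_at of Sstr1) to 0.618 (1368782_at of Sstr2).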

How the data were processed

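Values were the deposited array intensity of each probe set, on a linear scale, as the authors deposited it. Their summary and scaling methods were not given in the sources used here. Array medians ran from 70.06 to 74.1, so no further scaling was applied; the number of arrays, not a depth, limits precision. After leaving out 57 control probe sets, log2(signal + 17.05) was taken (17.05 is the 20th percentile of the table), and the brightest 60% by mean, 9520 of 15866 with a mean of at least 5.998, were tested. limma 3.58.1 in R 4.3.3 (lmFit, eBayes) was fitted to the 12 samples with 4 group means (13.1 degrees of freedom) and 7 contrasts. Two-sided p-values were Benjamini-Hochberg adjusted, with a threshold of 0.05. Members below the filter were compared by exact permutation.

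Groups came from the samples' descriptions and replicate numbers from their titles. Same-numbered samples of different groups had correlated deviations of -0.0721 to 0.199 (2 of 18 pairs over 0.1), so the numbers were not taken to pair samples. No batch is given in the labels. Gene names came from the array annotation: 12789 probe sets had 1 symbol, 312 had several and were not named, and 2771 non-control ones, absent from the annotation table, stay unnamed. By Entrez ID 12754 of the first kind matched the RefSeq table, with 0 symbols changed. The 16 lists used the brightest probe set of each gene (10411 genes, of which 6923 were above the filter). Every member was named, from each list the gene of smallest p in mean housing and in KA in each housing, Npy, Gad1, Pvalb and Cort wherever measured, and the 3 genes most and least like Sst and Sstr4; Gad2 is named beyond that rule as one of these and beside Gad1. The members and lists were chosen with earlier results of these data known. Alternatives were the pseudocount, the filter, equal medians, quantile normalization, array weights, a beta-actin 3′/5′ covariate, the replicate block, only the groups compared, and each array left out. The fit was tested on simulated data. Promoters were read with Python 3.11.15 and figures drawn with matplotlib 3.10.9.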

Additional observations from a re-analysis of the deposited data

Results flagged for a closer look

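KA against PBS differed in Sstr4 by -0.298 in isolated pools and by 0.259 in enriched pools (log2), with every KA-treated pool below every PBS-treated pool in isolation and above every one in enrichment. The difference between these values, 0.557, was not tested, since this pattern is what Sstr4 was selected on.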

How the results depend on the processing

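No member passed the adjusted threshold in any of the 7 contrasts, in the values reported or under any alternative run. The mean housing difference of Sst stayed below 0 (-0.249 to -0.142) and that of 1371174_s_at of Sstr2 above 0 (0.108 to 0.319) throughout; the low of 0.108 came with the beta-actin 3′/5′ ratio as a covariate. With the replicate number as a block, the Sst mean housing difference was -0.178 (limma adjusted p 0.765), and no call changed. The Sstr4 difference between KA effects was 0.403 at the higher pseudocount of 47.19. The mean housing difference of Sstr5 had an exact permutation p of 0.02 after quantile normalization (-0.193).

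Signs turned only for reported values between -0.0823 and 0.0688, and the cause was not tested. In housing after PBS, array weights gave -0.0175 for 1368782_at of Sstr2 and 0.0277 for Sstr3, while 1371174_s_at of Sstr2 was -0.00343 with equal medians and -0.0889 with the beta-actin covariate. In housing after KA, 1387692_a_at of Sstr1 was 0.00441 with array weights and 0.0912 with that covariate. For mean KA, 1369770_at of Sstr1 was 0.00015 with equal medians, and Sstr3 was -0.0227 with array weights and -0.00929 with the covariate.

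Leaving out 1 array at a time gave these ranges where a sign turned. KA in isolation: 1369770_at -0.0244 to 0.178, 1387692_a_at -0.104 to 0.119, 1368782_at -0.107 to 0.106 and Sstr3 -0.127 to 0.006. KA in enrichment: 1369770_at -0.158 to 0.00389. Housing after PBS: 1369770_at -0.111 to 0.0297, 1368782_at -0.0502 to 0.162, 1371174_s_at -0.114 to 0.102 and Sstr3 -0.0759 to 0.07. Housing after KA: Sst -0.166 to 0.0117 and 1387692_a_at -0.109 to 0.114. Mean housing: Sstr4 -0.0375 to 0.027. Mean KA: 1369770_at -0.0533 to 0.0479, 1368782_at -0.00484 to 0.136, Sstr3 -0.0337 to 0.0432, 1371201_at -0.0211 to 0.0196 and Sstr5 -0.0823 to 0.00483. The Sstr5 mean housing difference reached an exact permutation p of 0.025 without KA-treated isolated pool 1 (-0.193) and 0.04 without KA-treated enriched pool 1 (-0.194). That of 1371201_at of Sstr1 reached 0.04 without PBS-treated enriched pool 1 (0.0831) and 0.015 without KA-treated enriched pool 2 (0.0968). At the signals of 1371201_at, 2.373 to 5.189, no order of the groups can be read. With a pool left out, the exact tests had fewer arrangements than with all pools. With 3 pools a group, limma's unadjusted p was under 0.05 for Sst in housing after PBS and in mean housing. For 1371174_s_at of Sstr2 it was so in KA in isolation, housing after KA, mean housing and the difference between KA effects. None of these passed the adjustment over 9520 probe sets. The unadjusted limma p for mean housing rose to 0.0736 for Sst without PBS-treated enriched pool 2, and to 0.276 for 1371174_s_at with the beta-actin covariate.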
